A study of Mus musculus with 3 samples.

Results

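Gene-flanking SRF regions, meaning those that lay beside a gene but outside it and away from its start, numbered 5241 of 31850 regions (16.5%, exact binomial 95% interval 16.0 to 16.9). They were taken from the authors' merged regions as those with no CpG island, at least 1 assigned gene, no assigned gene start within 1000 bp of the region's centre, and no assigned gene that contains the region. No signal value entered this choice. Of the 5241, 1912 lay only upstream of their genes (36.5%, 35.2 to 37.8), 2359 lay only downstream (45.0%, 43.7 to 46.4), and 970 lay upstream of a gene and downstream of another (18.5%, 17.5 to 19.6). These 970 are called both-sides regions. The name refers to gene direction, since upstream-only and downstream-only regions with several genes can also have a gene on either side.

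SRF, the serum response factor, is a transcription factor that binds DNA at a sequence named the CArG box. It works with partner proteins of separate families. The MRTF proteins are released from monomeric actin when filaments assemble and act on genes of the cytoskeleton, and the TCF proteins, members of the ETS family, act on immediate early genes after growth signals. Regions beside genes, away from their starts, can hold enhancers, insulators or starts of transcripts that an annotation does not list.

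Chromatin was immunoprecipitated with an SRF antibody from whole corneas of mice aged about 8 weeks and sequenced. The mutant library came from Dstn-corn1 mice, which carry a spontaneous loss of destrin, an actin-depolymerizing protein, and the wildtype library from wildtype mice; both are labelled as of mixed background and untreated. The labels' growth protocol speaks of mutant mice in every library, the wildtype one included, so genotype rests on the titles. An input library, made without antibody, was not used here, and the sources used here do not give how many mice were pooled. Binding of SRF is not a measure of cell type, so the labelled tissue was not checked against expressed markers.

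With 1 library per genotype, differences between genotypes could not be checked in replicates, and p-values are left out. A peak height is the largest signal within a region, in the authors' units; the depth and any scaling between libraries are unknown. After 1 was added to each height, the log2 ratio of mutant to wildtype had a median of -1.10 over all regions. Multiplying mutant heights by 2.1, which equates the medians over regions called in both libraries, gave -0.09. A ratio is therefore read here against that of the other regions. In whole cornea, fewer bound cells and less binding per cell cannot be told apart. Intervals on medians and shares cover counting error over regions only. Coordinates are those of the files (mm10), and the sources used here do not say whether region starts count from 0.

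Sequence was at hand for a small share of the gene-flanking regions, those that touch a start window in RefSeq (GRCm38.p6, the same assembly as mm10). The windows run from 250 bases before a start to 50 after it. There were 65 such regions (1.24%, 0.958 to 1.58), touching 68 windows: 31 upstream-only, 21 downstream-only and 13 both-sides regions. In 15 of them the start belonged to a gene the authors had assigned to the region. These sequences are shown because they mark where a region chosen as lying away from gene starts held a start in another annotation. The 250 bases before the start, all of which lay inside the region, follow 5′ to 3′ for 5 of them. These 5 were chosen after their values and motifs were seen, so they do not show how common a motif is. Capitals mark matches to the motifs searched, on either strand.
Ntn5 start, chr7:45683772-45684021, plus strand: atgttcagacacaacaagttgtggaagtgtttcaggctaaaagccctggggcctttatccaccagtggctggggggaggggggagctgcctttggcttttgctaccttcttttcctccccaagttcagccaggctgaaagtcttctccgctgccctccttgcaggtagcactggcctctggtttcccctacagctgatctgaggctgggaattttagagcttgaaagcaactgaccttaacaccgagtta
Start of LOC102631992, downstream of Ssh3, chr19:4257706-4257955, minus strand: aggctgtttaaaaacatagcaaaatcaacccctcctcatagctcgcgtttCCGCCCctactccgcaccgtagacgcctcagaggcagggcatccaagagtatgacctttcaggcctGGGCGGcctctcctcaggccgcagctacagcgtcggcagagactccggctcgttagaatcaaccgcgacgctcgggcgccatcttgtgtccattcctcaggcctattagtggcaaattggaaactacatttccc
Akt1 start, chr12:112674885-112675134, minus strand: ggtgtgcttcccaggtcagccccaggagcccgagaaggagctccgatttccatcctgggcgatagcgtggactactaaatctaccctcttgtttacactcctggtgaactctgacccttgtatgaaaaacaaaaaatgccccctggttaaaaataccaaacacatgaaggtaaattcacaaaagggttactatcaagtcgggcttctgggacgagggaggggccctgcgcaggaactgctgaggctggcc
Start of Gm33663, upstream of Cdkn1c, chr7:143466499-143466748, minus strand: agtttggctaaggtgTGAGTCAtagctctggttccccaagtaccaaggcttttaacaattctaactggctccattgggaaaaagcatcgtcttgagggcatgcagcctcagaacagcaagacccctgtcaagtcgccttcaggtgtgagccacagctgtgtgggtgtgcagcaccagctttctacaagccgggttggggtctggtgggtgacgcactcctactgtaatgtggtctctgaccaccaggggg
Start of Gm40929, upstream of Tbc1d7, chr13:43173277-43173526, plus strand: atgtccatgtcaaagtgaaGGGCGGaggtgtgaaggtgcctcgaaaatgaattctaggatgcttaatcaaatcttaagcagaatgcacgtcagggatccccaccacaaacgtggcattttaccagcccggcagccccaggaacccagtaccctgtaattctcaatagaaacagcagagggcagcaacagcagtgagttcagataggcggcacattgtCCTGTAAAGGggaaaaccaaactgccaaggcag

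The region at Ntn5, a netrin family gene, had a peak height of 47 in mutant and 125 in wildtype. That downstream of Ssh3, a gene of the slingshot phosphatases that activate cofilin, had 39 in mutant and 92 in wildtype, and its capitals are the motif GGGCGG, once on each strand. The Akt1 region, at a gene for a growth-signal kinase, had 38 in mutant and 58 in wildtype, with no motif in these bases. The region upstream of Cdkn1c, a cell cycle inhibitor gene, had 27 in mutant and 47 in wildtype and carried TGANTCA, the AP-1 site. The region upstream of Tbc1d7 had 24 in mutant and 30 in wildtype, and held GGGCGG and a CArG box with 1 mismatch among its central bases.

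An exact CArG box was found in 0 of the 68 windows (upper limit 5.28%), against 11 of 653 windows in promoter regions without a CpG island (1.68%) and 535 of all 32851 windows (1.63%). At that rate few matches could be seen in 68 windows. The CArG box with 1 central mismatch was in 9 of the 68 (13.2%, 6.23 to 23.6), 72 of the 653 (11.0%) and 8.50% of all windows. TGANTCA was in 7 (10.3%, 4.24 to 20.1), 8.58% and 7.81%; CCGGAAGT, an ETS site, in 1 (1.47%), 5.05% and 3.89%; GGGCGG in 19 (27.9%, 17.7 to 40.1), 42.4% and 35.7%; and TATAAA in 9 (13.2%), 8.27% and 13.6%. The interval of each share among the 68 windows held the share of all windows, and the motifs can overlap. Windows can overlap too, as at Gm33663, where the same TGANTCA site counts more than once. The intervals take windows as independent. Median GC content was 52.2% in the 68 windows, 54.7% in the promoter regions and 52.7% over all windows. The 65 regions with a start window had median heights of 20 in mutant and 44 in wildtype; gene-flanking regions without one had 15 in mutant and 33 in wildtype.

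What counts as outside a gene or a promoter depended on the annotation. All 1444 upstream-only regions within 7.5 kb of a start carry a promoter in the authors' own promoter count, as did 63 of the 468 farther out. By RefSeq, the centres of 1021 gene-flanking regions lay inside a gene (19.5%, 18.4 to 20.6), and of 467 inside a protein-coding gene (8.91%, 8.15 to 9.71). This held for 24.1% of upstream-only regions (22.2 to 26.0) and 15.3% of downstream-only regions (13.9 to 16.9), intervals that did not overlap; lncRNA genes contained 533 of the 1021. Heights of regions inside and outside RefSeq genes were much alike, with medians of 15 and 15 in mutant and 32 (31 to 34) and 34 (33 to 34) in wildtype.

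The authors' gene assignment limited how far a region could lie from its gene, and regions with no gene in reach form a separate kind. Within that limit, upstream-only regions lay at a median of 4946.5 bp from the nearest start (4716 to 5101), from 1001 bp at Scarb2, which encodes a lysosomal membrane protein, to 11208 bp at Slc46a1, the folate transporter gene. Downstream-only regions lay at a median of 3938.5 bp past the nearest gene end (3730 to 4124), for the 2358 of 2359 whose gene end could be placed, and up to 10450 bp. Counted from the start, which includes the gene's length, their median was 20050 bp, and the farthest lay 1114089 bp from the start of Auts2. The 337 downstream-only regions within 1 kb of a gene end have no upstream counterpart, since the choice of regions removed those near starts.

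Gene-flanking regions had a median height of 15 in mutant (15 to 16) and 33 in wildtype (33 to 34). Promoter regions without a CpG island had 13 (12 to 14) and 26 (24 to 28), regions inside genes 13 (13 to 13) and 29 (28 to 29), regions with no assigned gene 12 (12 to 12) and 29 (28 to 29), and all regions 13 and 28. The intervals of the gene-flanking regions did not overlap those of these 3 kinds in either library. The share of regions with a wildtype height of at least 50 was 24.3% in gene-flanking regions (23.1 to 25.5) and 19.4% over all regions. It was 20.1% in promoter regions (17.7 to 22.5), 17.4% inside genes (16.7 to 18.1) and 17.2% with no gene (16.3 to 18.0). This excess did not hold at every cutoff. A wildtype height of at least 100 was reached by 1.95% of gene-flanking, 2.07% of promoter and 2.41% of all regions. It was reached by 1.09% inside genes and 1.31% with no gene. For a mutant height of at least 50 the shares were 1.55% of gene-flanking, 1.89% of promoter and 1.65% of all regions. They were 0.658% inside genes and 1.15% with no gene.

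**Figure D1:**
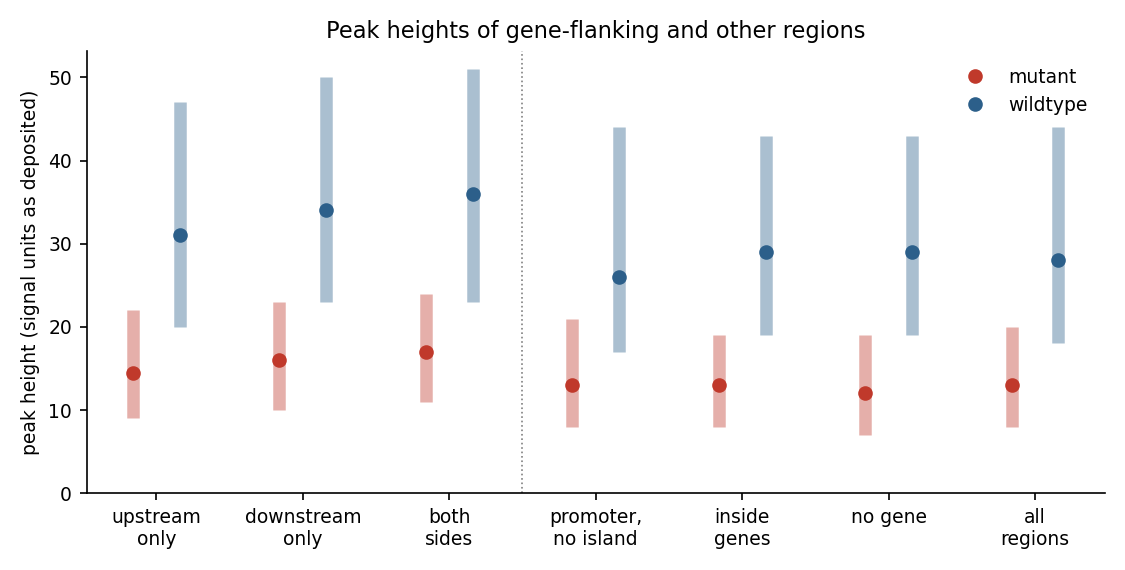
Peak height (signal units as deposited) in the mutant and wildtype libraries for gene-flanking regions, left of the dotted line, and for other regions. Gene-flanking kinds are upstream-only, downstream-only and both-sides, meaning upstream of a gene and downstream of another. Points are medians and bars run from the first to the third quartile; wildtype medians of the gene-flanking kinds are 31, 34 and 36, against 26 to 29 for the others.

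Upstream-only regions were somewhat lower than downstream-only regions in both libraries. In mutant the median height was 14.5 upstream (14 to 15) and 16 downstream (15 to 16), and in wildtype 31 upstream (30 to 33) and 34 downstream (33 to 35). The intervals met at a single value in each library, and no test was made, because regions of 1 library are not replicates. Both-sides regions, upstream of a gene and downstream of another, had medians of 17 in mutant (16 to 18) and 36 in wildtype (34 to 37).

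The order of the medians was the same at each matched distance. From 1 to 2.5 kb past the gene edge, medians were 15 upstream and 16 downstream in mutant, and 31 (28 to 33) and 33 (31 to 35) in wildtype. From 2.5 to 5 kb they were 14.5 and 16 in mutant, and 32 (30 to 34) and 34 (32 to 36) in wildtype. From 5 to 7.5 kb they were 15 and 16 in mutant, and 31 (29 to 33) and 34 (31 to 37) in wildtype. From 7.5 to 12 kb they were 14 and 16 in mutant, and 31.5 (29 to 34) and 35 (32 to 38) in wildtype. The wildtype intervals of the upstream and downstream regions overlapped in every distance class. Neither kind changed steadily with distance: wildtype medians ran from 31 to 32 upstream and from 33 to 36 downstream.

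**Figure D2:**
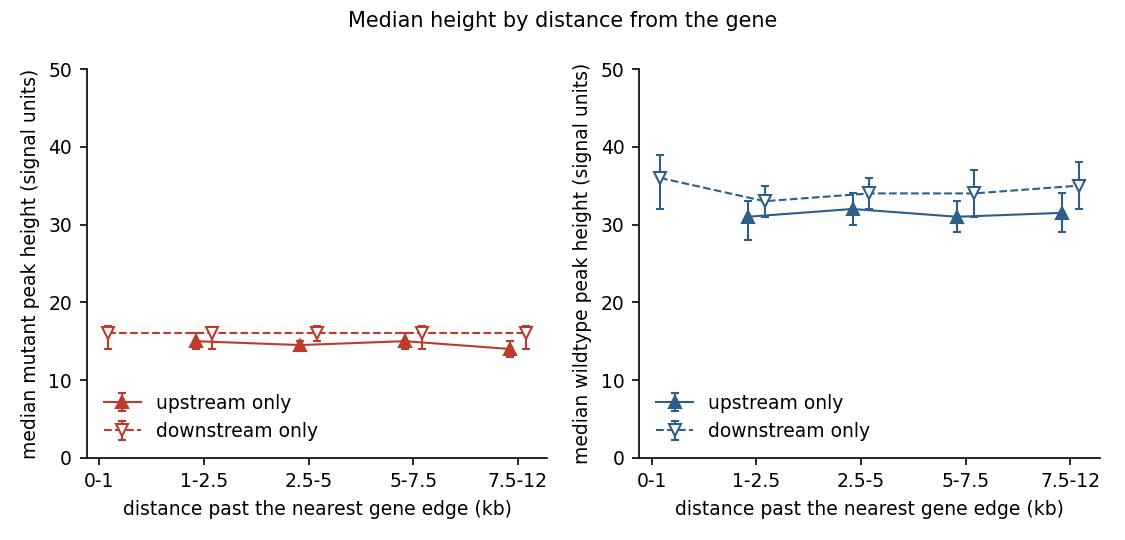
Median peak height (signal units) against the distance past the nearest edge of an assigned gene (kb), for mutant at left and wildtype at right. Filled triangles are upstream-only and open triangles downstream-only regions, bars are order-statistic 95% intervals, and the downstream medians lie above the upstream ones in each class from 1 kb on.

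Downstream-only regions were also the more often called in both libraries. Intervals were called in both at 52.4% of upstream-only regions (50.1 to 54.7), 57.4% of downstream-only regions (55.4 to 59.4) and 60.8% of both-sides regions (57.7 to 63.9). Over all gene-flanking regions 2947 of 5241 were called in both (56.2%, 54.9 to 57.6), where the share of all regions was 48.9%. Wildtype alone had 2227 (42.5%, against 49.0% of all regions), and mutant alone had 67 (1.28%, against 2.10%).

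Calling followed height. Among regions with a mean height over 20 and up to 25, 52.0% of the 298 upstream-only and 54.2% of the 332 downstream-only regions were called in both libraries. Over 10 and up to 15 these shares were 4.22% and 6.65%, and over 40 and up to 50 they were 99.4% and 97.7%. The upstream minus downstream difference in the share was -5.03 points (-8.06 to -2.00). Among regions at or above the median height of all regions it was -2.94 (-6.21 to 0.30), an interval that takes in both signs. Where both libraries called an interval, the summits lay at a median of 16 bp from each other, and within 100 bp in 98.3% of the 2947 regions (97.8 to 98.7). The share was 97.9% upstream (96.8 to 98.7) and 98.5% downstream (97.7 to 99.1), and 95.1% in promoter regions without a CpG island (92.9 to 96.8). Both summits come from intervals that overlap the same merged region, which limits how far apart they can lie. The median length of gene-flanking regions was 633 bp.

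Mutant heights were below wildtype at 5098 of 5241 gene-flanking regions (97.3%), as they were at 95.4% of all regions. At least 2-fold lower in mutant were 3167 (60.4%, 59.1 to 61.8), where the share of all regions was 59.0%; at least 2-fold higher were 18 (0.343%), where it was 0.414%. Both shares stood near those of all regions. With heights scaled to a common median, 373 were lower (7.12%, against 9.30% of all regions) and 144 higher (2.75%, against 4.58%), both below the shares of all regions. Neither share was particular to gene-flanking regions. Scaled shares of lower regions were 6.83% in promoter regions without a CpG island, 11.0% inside genes and 14.9% with no gene. Scaled shares of higher regions were 6.03%, 2.72% and 2.14% in the same order. The median log2 ratio was -1.11 (-1.13 to -1.09), close to the -1.10 of all regions; promoter regions without a CpG island had -1 (-1.07 to -1), regions inside genes -1.18 (-1.19 to -1.17) and regions with no gene -1.26 (-1.28 to -1.24).

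Upstream and downstream regions did not separate in their ratio. Upstream-only regions had a median log2 ratio of -1.11 (-1.13 to -1.08), downstream-only regions -1.13 (-1.15 to -1.09), and both-sides regions -1.09 (-1.13 to -1.04). The upstream minus downstream difference was 0.019. At least 2-fold lower in mutant were 1144 upstream (59.8%, 57.6 to 62.0) and 1456 downstream (61.7%, 59.7 to 63.7), and 6 and 5 were at least 2-fold higher. Within classes of like height the difference took both signs. Over a mean height of 15 and up to 20, medians were -1 upstream and -1.06 downstream. Over 40 and up to 50 they were -1.13 upstream and -1.10 downstream.

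**Figure D3:**
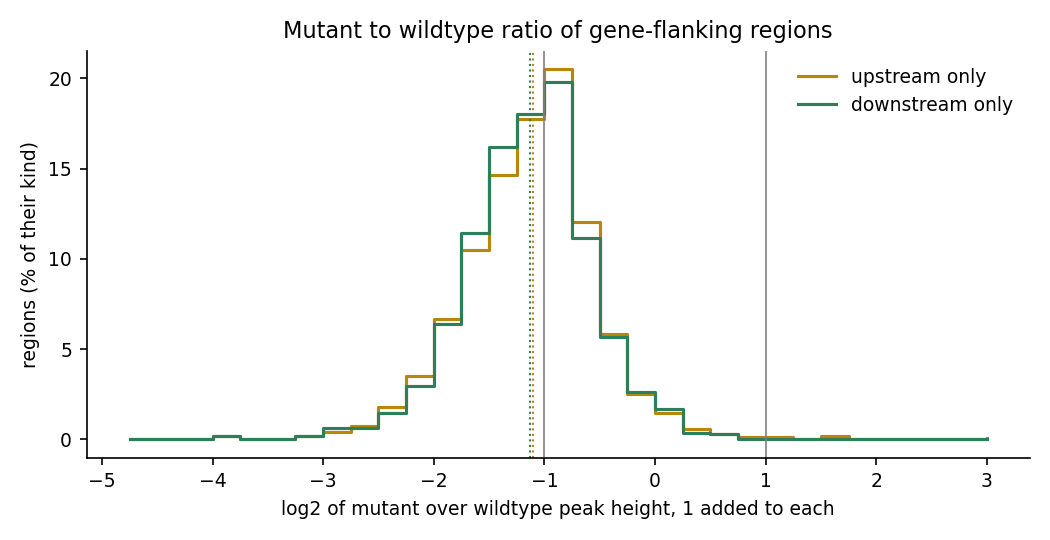
Share of upstream-only and downstream-only regions (percent of their kind) by the log2 ratio of mutant to wildtype peak height, with 1 added to each height. Dotted lines are the medians, -1.11 upstream and -1.13 downstream, and grey lines mark 2-fold; the outlines of the 2 kinds lie over each other.

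The highest gene-flanking region in mutant lay 3066 bp past the end of 1600014C10Rik (chr7:38199543-38201726), with 121 in mutant and 212 in wildtype. The highest in wildtype lay 9811 bp past Glrx3, a glutaredoxin gene (chr7:137477701-137479109), with 97 in mutant and 232 in wildtype. Another, past Kcnk18, a potassium channel gene, had 94 in mutant and 230 in wildtype. Of the 10 highest in each library, 7 were the same.

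Stmn1, the gene of the microtubule-destabilizing protein stathmin, had a region 4526 bp past its end (chr4:134477716-134479023) with 100 in mutant and 173 in wildtype. Past Chst8, a sulfotransferase gene, heights were 92 in mutant and 206 in wildtype. Past Ptges2, a gene named for prostaglandin E synthesis, in a region shared with Slc25a25, they were 91 in mutant and 204 in wildtype. Past Slc17a9, a nucleotide transporter gene, they were 83 in mutant and 194 in wildtype. All 4 regions were called in both libraries.

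Upstream of genes the highest was at Srgap1, which encodes a GTPase-activating protein (chr10:122051268-122052861), 4749 bp before the start, with 97 in mutant and 218 in wildtype. The next lay 1819 bp before Gtf3c5, a gene of the polymerase III factor TFIIIC, with 91 in mutant and 189 in wildtype. Further upstream regions were at Ncf4, an NADPH oxidase subunit gene, with 64 in mutant and 165 in wildtype, and at Eif4b, a translation initiation factor gene, with 72 in mutant and 148 in wildtype. Among the 100 gene-flanking regions of highest mean height, 36 were upstream-only, 38 downstream-only and 26 both-sides regions. Downstream-only regions made up 45.0% of all gene-flanking regions.

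**Figure D4:**
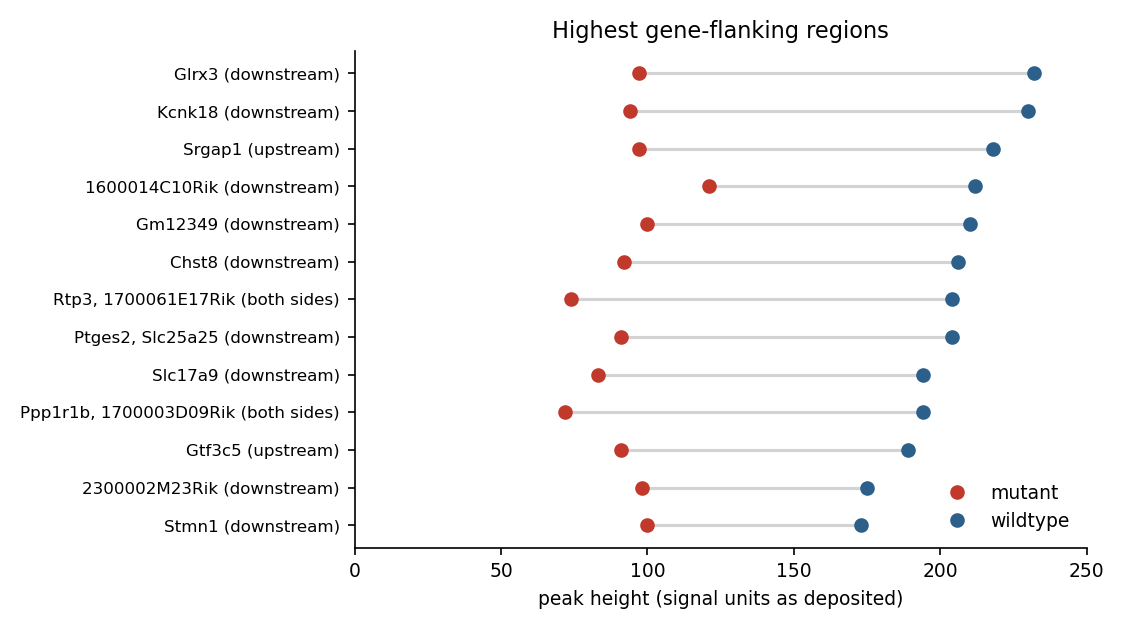
Peak height (signal units as deposited) in mutant and wildtype for the 13 regions that are among the 10 highest gene-flanking regions of either library, named by their assigned genes. Mutant heights lie from 72 to 121 and wildtype heights from 173 to 232, and wildtype is the higher in every one.

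The gene-flanking regions were assigned to 5843 genes, 35.0% of the 16699 genes with any region. Of these genes 2384 had them only upstream (40.8%), 2938 only downstream (50.3%) and 521 on both sides (8.92%). A single region was held by 4644 genes (79.5%) and the most by Cnot10, Slc22a18 and Slc1a3, with 5 each. For 1992 genes (34.1%, 32.9 to 35.3) the gene-flanking regions were the only SRF regions assigned.

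A region within 1000 bp of the start was present in 2119 of the 5843 genes (36.3%). In these genes the highest flanking region had medians of 18 in mutant and 37 in wildtype; the highest region at the start had 15 in mutant and 24 in wildtype. The flanking region was the higher of the pair in 54.5% of genes in mutant (52.3 to 56.6) and 62.9% in wildtype (60.8 to 64.9). It was higher in both libraries in 1030 genes, and the region at the start was higher in both in 634. A gene can have several flanking regions, which favours the highest of them. The highest value was taken in each library separately, so a gene's mutant and wildtype values can come from different regions.

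Glrx3 and Gtf3c5 were among the clearest of these, chosen after their values were seen. At Glrx3 the flanking region had 97 in mutant and 232 in wildtype, while the start had 11 in mutant and 69 in wildtype. At Gtf3c5 it had 91 in mutant and 189 in wildtype, while the start had 12 in mutant and 40 in wildtype. At Vps8, a vesicle tethering gene, a region 10361 bp upstream had 64 in mutant and 156 in wildtype, while the start had 11 in mutant and 17 in wildtype. At Eif4b the values were 72 in mutant and 148 in wildtype, while the start had 14 in mutant and 17 in wildtype. At Dgat2, a triglyceride synthesis gene, the highest downstream values were 62 in mutant and 144 in wildtype, while the start had 9 in mutant and 13 in wildtype.

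The largest ratios toward mutant, of which 9 are given, were found in regions that only mutant called, all with modest heights. Bai1, an adhesion receptor gene, had 29 in mutant and 4 in wildtype at 4765 bp past its end. Gdf3, a TGF-beta family gene, had 18 in mutant and 5 in wildtype upstream.

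Cytoskeletal and keratin genes were among them. Myo1d, a class I myosin gene, had 20 in mutant and 8 in wildtype at 5799 bp upstream, and Cdc42bpb, a kinase gene of the Cdc42 pathway, had 19 in mutant and 8 in wildtype at 8986 bp upstream. Krt23, a keratin gene, had 16 in mutant and 5 in wildtype at 7322 bp upstream. The remaining regions were at Dnajc28 with Gart (20 in mutant and 6 in wildtype), Klrg1 (20 in mutant and 6 in wildtype), Mag (18 in mutant and 6 in wildtype) and Supt4a with Mir142 (23 in mutant and 9 in wildtype). Each of these was below a mutant height of 30.

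The largest ratios toward wildtype were found in regions that only wildtype called. Gm15753 had 2 in mutant and 56 in wildtype, and a region shared by Plod3, a collagen lysyl hydroxylase gene, and Mir702 had 4 in mutant and 74 in wildtype. Sh3gl3, an endophilin gene, had 2 in mutant and 40 in wildtype upstream, and Tmem132c 5 in mutant and 53 in wildtype upstream. Atp7b, a copper transporter gene, had 6 in mutant and 61 in wildtype past its end.

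Havcr1 (4 in mutant and 42 in wildtype) and Ikzf2, a transcription factor gene (7 in mutant and 62 in wildtype), had theirs upstream. A region between Dnajb5 and 1700022I11Rik had 5 in mutant and 47 in wildtype. The last were at Gm20745 (5 in mutant and 43 in wildtype) and 1700011B04Rik (6 in mutant and 50 in wildtype), both downstream. Upstream-only and downstream-only regions were present at both ends of the ranking.

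Gene-flanking regions were next counted for lists of genes. Each gene is described by its region of highest mean height, and list genes beyond the 5 highest were named after their values were seen. Such a region can also be assigned to neighbouring genes, even where these are not named, and is then not the listed gene's alone. In the immediate early and TCF-linked list, 8 of 32 genes with any region had one (25%), below the 35.0% of all genes with a region. Ctgf, a matricellular target of growth signals, had 31 in mutant and 46 in wildtype at 3912 bp upstream (chr10:24590971-24592090). Myc, a growth factor-responsive transcription factor gene, had 16 in mutant and 32 in wildtype at 1898 bp upstream, and Arc 17 in mutant and 28 in wildtype at 6754 bp upstream. Ier2, an immediate early gene, had 27 in mutant and 17 in wildtype at 2785 bp past its start, in a region that only mutant called. Dusp1, a MAP kinase phosphatase gene, had 17 in mutant and 13 in wildtype at 5396 bp past its start.

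Junb had 26 in mutant and 42 in wildtype and Fosb 18 in mutant and 26 in wildtype, AP-1 subunit genes whose regions are shared with neighbouring genes. Egr4, a zinc finger transcription factor gene, had the lowest ratio of the list, with 5 in mutant and 19 in wildtype. The median log2 ratio over the 8 genes was -0.61, with a range from -1.74 to 0.64; 1 gene was at least 2-fold lower in mutant and 0 at least 2-fold higher, where the shares of all regions were 59.0% and 0.414%. Over all gene-flanking regions the median was -1.11. With common scaling the list's median turned to 0.43.

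Among genes of the actin cytoskeleton linked to MRTF, 13 of 36 with any region had a gene-flanking one (36.1%), near the share of all genes. Actg1, the gamma-actin gene, had 34 in mutant and 66 in wildtype at 5214 bp upstream, in a region shared with neighbouring genes. Cnn1, a calponin gene of smooth muscle, had 26 in mutant and 38 in wildtype at 3032 bp upstream, in a region shared with Gm16845. Flna, the filamin A gene, had 14 in mutant and 23 in wildtype at 2283 bp upstream, in a region shared with Emd. Pdlim7 had 22 in mutant and 51 in wildtype in a region shared with Dok3. Cnn2 had 18 in mutant and 53 in wildtype in a region shared with Grin3b, Tmem259 and Abca7. Myh9, a nonmuscle myosin gene, had 25 in mutant and 57 in wildtype in a region shared with Apol8.

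Tpm2, a tropomyosin gene, and Tln1, the talin gene, share a region with 20 in mutant and 36 in wildtype. The lowest log2 ratio of the list was at Actn1, an alpha-actinin gene, with 10 in mutant and 31 in wildtype. The median of the 13 genes was -0.94 (-1.35 to -0.82); 6 were at least 2-fold lower in mutant, and none was higher by that fold, where the shares of all regions were 59.0% and 0.414%. Common scaling turned the median to 0.07.

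Genes of actin filament turnover had a gene-flanking region in 8 of 27 (29.6%). The region past Ssh3 is that shown above. Cttn, the cortactin gene, had 34 in mutant and 67 in wildtype in a region shared with Shank2. Capg, a capping protein gene, had 34 in mutant and 52 in wildtype at 10151 bp upstream. Ssh2, another slingshot gene, had 18 in mutant and 46 in wildtype at 1504 bp upstream. Capza2, a capping protein subunit gene, had 28 in both libraries. Limk1, a kinase that inactivates cofilin, had 14 in mutant and 17 in wildtype, and Arpc5, an Arp2/3 subunit gene, 16 in mutant and 31 in wildtype.

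The region past Dstn, the mutated gene, which is also assigned to Rrbp1 (chr2:143945654-143946056), was listed at 0 in mutant and had 13 in wildtype. It lies 1540 bp past the end of Dstn, and whether its DNA is intact in the mutant was not tested. Without Dstn, the median log2 ratio over the other 7 genes of the turnover list was -0.91. Of these 7, 2 were at least 2-fold lower in mutant (59.0% of all regions). With common scaling the median turned to 0.11. Only 3 further gene-flanking regions were listed at 0 in mutant, at Olfr675 (22 in wildtype), Cma1 (14) and LOC100502924 (13).

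Corneal epithelium genes had gene-flanking regions in 13 of 19 (68.4%), against 35.0% of all genes with a region and 60% in the list of unrelated tissues (6 of 10). Krt5 and Krt6a share 1 region and each count. The median ratio of the epithelium list was the least negative of the lists with more than 1 gene. Of its 13 genes, 8 are keratin genes, and 7 of these were not 2-fold lower in mutant. Among its other genes, Cdh1, Grhl3 and Elf3 were at least 2-fold lower, and Clu and Pkp1 were not. Krt14, a basal epithelial keratin gene, had 38 in mutant and 35 in wildtype in a region shared with Krt9. Krt8, a keratin of simple epithelia, had 37 in mutant and 49 in wildtype at 8420 bp past its end, and Krt10, a keratin of differentiated epidermis, 45 in mutant and 55 in wildtype in a region shared with Krt28. Krt12, the keratin of the differentiated corneal epithelium, had 17 in mutant and 20 in wildtype, and Krt5, the partner of Krt14, 21 in mutant and 29 in wildtype in a region shared with Krt6a.

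Clu, the clusterin gene, had 40 in mutant and 47 in wildtype, and Pkp1, a desmosome gene, had 31 in mutant and 57 in wildtype. Krt18 had 14 in mutant and 18 in wildtype upstream. Krt13 (10 in mutant and 22 in wildtype), Cdh1, the E-cadherin gene (7 in mutant and 17 in wildtype), Grhl3 (9 in mutant and 26 in wildtype) and Elf3 (5 in mutant and 17 in wildtype), both epithelial transcription factor genes, were at least 2-fold lower in mutant and were called only in wildtype. The median of the 13 genes was -0.45 (-1.17 to -0.23), an interval that held the -1.11 of all gene-flanking regions. With scaling to a common median the list's median turned to 0.59, while that of all gene-flanking regions was -0.09.

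**Figure D5:**
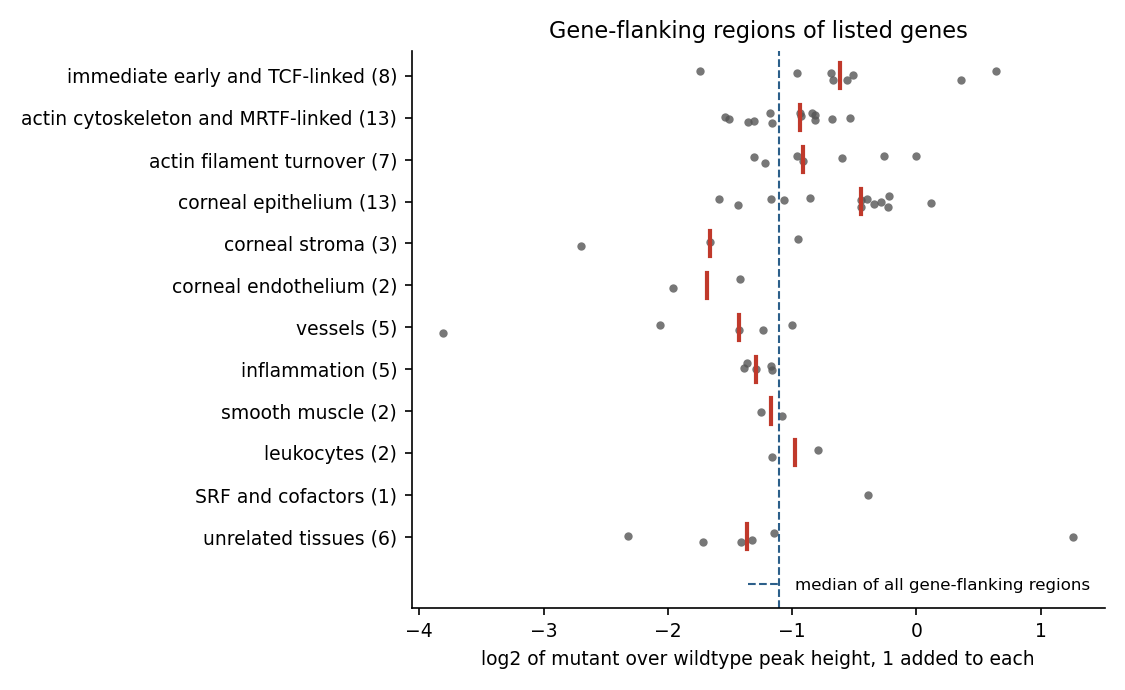
Log2 ratio of mutant to wildtype peak height for the gene-flanking regions of listed genes, 1 point per gene (its region of highest mean height), with the number of genes in parentheses. Red bars are list medians and the dashed line is the median of all gene-flanking regions, -1.11; Dstn, listed at 0 in mutant, is left out, and some genes share a region.

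Lists of other cell types held few genes with such regions, and their part in the ratios above was not tested. Vessel genes had a gene-flanking region in 5 of 11, and all 5 were at least 2-fold lower in mutant, with a median of -1.42. Of all regions 59.0% were lower by that fold. Vegfa, the main endothelial growth factor gene, had 21 in mutant and 58 in wildtype at 9034 bp upstream, and Cdh5, the endothelial cadherin gene, 11 in mutant and 49 in wildtype past its end. Kdr, a VEGF receptor gene, had 1 in mutant and 27 in wildtype. Pecam1, an endothelial adhesion gene, had 24 in mutant and 49 in wildtype.

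Inflammation genes had one in 5 of 11, and all 5 were at least 2-fold lower in mutant, with a median of -1.29, where the share of all regions was 59.0%. Nfkbia, the NF-kB inhibitor gene, had 40 in mutant and 99 in wildtype at 6544 bp upstream (chr12:55498712-55499670). Cxcl2, a neutrophil chemokine gene, had 20 in mutant and 46 in wildtype past its end, and Icam1 12 in mutant and 33 in wildtype. With scaling, the medians were -0.39 for vessel genes and -0.23 for inflammation genes.

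Stroma genes had one in 3 of 10, with Col1a2, a type I collagen gene, at 5 in mutant and 38 in wildtype and Col12a1 at 14 in mutant and 28 in wildtype. Corneal endothelium genes had one in 2 of 5, Col8a2 with 14 in mutant and 39 in wildtype and Slc4a4, a bicarbonate cotransporter gene, with 7 in mutant and 30 in wildtype. Leukocyte genes had one in 2 of 5, among them S100a8, a calprotectin subunit gene, with 24 in mutant and 55 in wildtype. Smooth muscle genes had one in 2 of 8, at Lmod1 (25 in mutant and 54 in wildtype, shared with Shisa4) and Pdgfrb (12 in mutant and 30 in wildtype, shared with Cdx1). Of SRF and its cofactors 1 of 7 did, Mkl1, the MRTF-A gene, with 12 in mutant and 16 in wildtype at 8951 bp upstream. Genes of unrelated tissues, as a background, had one in 6 of 10 (60%). Myh6 had 28 in mutant and 76 in wildtype, in a region shared with Il25, Cmtm5 and Mir208a. Gfap had 27 in mutant and 69 in wildtype, in a region shared with Kif18b. The median of the 6 genes was -1.37, and 5 of the 6 were at least 2-fold lower in mutant (59.0% of all regions). The other, Nppa, had 11 in mutant and 4 in wildtype.

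MicroRNA genes, identified by symbol, were assigned to 91 of the gene-flanking regions, which had medians of 16 in mutant and 33 in wildtype and a median log2 ratio of -1.12 (-1.22 to -0.93). Of the 90 microRNA genes, 83 matched RefSeq sequences. Those named here were chosen after their values were seen, for known roles in epithelia: miR-184 and miR-205 are abundant in the corneal epithelium, miR-203 acts in differentiating keratinocytes, miR-34a is induced by p53, and the let-7 family restrains growth. Their mature sequences are shown so that the family with a common seed can be seen, with the seed, bases 2 to 8, in capitals.
miR-184-3p: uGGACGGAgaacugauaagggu
miR-205-5p: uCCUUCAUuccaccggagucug
miR-203-3p: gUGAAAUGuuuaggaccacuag
miR-34a-5p: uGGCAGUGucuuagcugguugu
let-7a-5p: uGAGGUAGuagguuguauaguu
let-7b-5p: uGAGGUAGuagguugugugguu
let-7c-5p: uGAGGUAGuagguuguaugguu
let-7d-5p: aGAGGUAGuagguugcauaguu
let-7f-5p: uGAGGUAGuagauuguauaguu
let-7i-5p: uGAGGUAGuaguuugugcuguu

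The let-7 sequences share the seed GAGGUAG, and their genes lie beside regions on 3 chromosomes. The let-7b and let-7c-2 genes on chromosome 15 had regions of 38 in mutant and 63 in wildtype and of 27 in mutant and 53 in wildtype, both downstream. The let-7a-1, let-7d and let-7f-1 genes on chromosome 13 had a downstream region of 29 in mutant and 61 in wildtype. Mirlet7i on chromosome 10 had one of 15 in mutant and 36 in wildtype upstream, which only wildtype called.

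Mir184 had regions on both sides, with 23 in mutant and 29 in wildtype downstream and 10 in mutant and 20 in wildtype upstream. Mir205 had a downstream region of 15 in mutant and 32 in wildtype, Mir34a one of 14 in mutant and 41 in wildtype, and Mir203 one of 31 in mutant and 70 in wildtype that also lies upstream of Kif26a. Of all 91 regions, 53 were at least 2-fold lower in mutant and 1, at Mir142, at least 2-fold higher, where the shares of all regions were 59.0% and 0.414%. The count of lower regions was near that background.

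At the distance that separates the gene-flanking regions from promoters, heights were alike on both sides. The 47 regions over 1000 and up to 1100 bp from a start had median heights of 14 in mutant (3 to 55) and 27 in wildtype (7 to 125). The 59 regions over 900 and up to 1000 bp away, outside the choice, had 14 in mutant (2 to 33) and 28 in wildtype (8 to 97), where the ranges in parentheses are the lowest and highest values. The median log2 ratio was -1.12 inside and -0.97 outside.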

How the data were processed

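SRF ChIP-seq signal was taken from the mutant and the wildtype library. The submitters' processing notes name BWA and the build mm10. The sources used here do not give how intervals were called or how libraries were scaled. Signal values, per the file headers, are the peak value and average value of each merged region; peak values are whole numbers. The authors' gene assignments, distances, CpG island counts and promoter counts were used as deposited, and their deposited ratio was not.

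Log2 ratios set mutant against wildtype peak heights, with 1 added to both. Gene ends came from the authors' gene table, and distances from the gene edge were measured from the region's centre. Depth is unknown, so no limit from read counts was computed. Shares carry exact binomial 95% intervals and medians order-statistic 95% intervals. The median and interval code was tested on simulated data. With 1 library per genotype no test was run. RefSeq start windows, gene spans and microRNA sequences were of GRCm38.p6; no genome sequence was used, so motifs were searched only in start windows.

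Members, lists and rules were chosen with earlier results of these data known. Named regions are the 10 highest in mutant and in wildtype, the 10 most extreme ratios in either direction among called regions of at least the median height of the higher library over gene-flanking regions (15 in mutant, 33 in wildtype) with no library at 0, the nearest and farthest of each kind, and up to 5 genes per list; further names are background to these or said to be chosen after their values. Alternatives were the average value, a pseudocount of 5, common scaling, height and calling filters, a 5000 bp promoter distance, regions with CpG islands, single genes, height matching, and, added after seeing the data, RefSeq annotation and matched edge distance. Software was pandas 2.3.3, numpy 2.4.6, scipy 1.17.1 and matplotlib 3.10.9 under Python 3.11.15. Some results that the rules would name are not reported here.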

Additional observations from a re-analysis of the deposited data

How the results depend on the processing

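No paired analysis was possible because mutant and wildtype had 1 library each. The CArG box shares over all gene-flanking regions and their alternatives need a genome sequence and were not run. Of 64 values recomputed for 12 results, 47 stayed within the interval of the reported value or, for counts, within 1.5 times; the others are given here, and why they moved was not tested. The average value gave 1792 regions at least 2-fold lower in mutant, a median log2 ratio of -0.83, and upstream minus downstream differences of -0.284 in mutant and -0.677 in wildtype average height. A pseudocount of 5 gave 11 regions at least 2-fold higher and a median log2 ratio of -0.94. Scaled to a common median, which is built to move ratios toward 0, heights gave 373 lower (7.12%, against 9.30% of all regions), 144 higher (2.75%, against 4.58%) and a median log2 ratio of -0.091. The smaller set called in both libraries gave 1492 lower, 0 higher and a median of -1. At or above the median height of all regions (13 in mutant, 28 in wildtype) 3364 regions remained, 77.6% called in both and 21.0% in wildtype only, with a median of -1.14. Apart from common scaling, the shares of all regions under these settings were not computed. The counts and shares under the other settings therefore cannot be set against that background. A 5000 bp promoter distance left 41 list genes with a gene-flanking region, against 68. The upstream minus downstream difference in median log2 ratio lay between -0.006 and 0.032 under all 11 alternatives. The reported 0.019 had an interval of -0.022 to 0.058. Upstream heights stayed below downstream heights from 1000 to 10000 bp past the gene edge, by 2 in mutant and 3 in wildtype. What depth limits among low regions is unknown.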

Other observations

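Keratin genes were looked at as a family after the values of the epithelium list were seen. Gene-flanking regions assigned to a keratin gene numbered 21, with 12 on chromosome 11 and 9 on chromosome 15, which hold the type I and type II keratin clusters. Their medians were 18 in mutant and 35 in wildtype, with a median log2 ratio of -0.68 (-1.06 to -0.28), against -1.11 over all gene-flanking regions. Of the 21, 7 were at least 2-fold lower in mutant (33.3%, exact binomial 95% interval 14.6 to 57.0), beside 59.0% of all regions. The 21 include the 7 keratin regions of the epithelium list, whose values prompted this look. The intervals take no account of that choice, so the contrast is partly built in. The 14 called in both libraries had a median of -0.65, against -1 for all gene-flanking regions called in both.

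The family was not uniform. Krt84, a hair keratin gene, had 33 in mutant and 38 in wildtype at 5093 bp past its end, and the region at Krt9 and Krt14 had 38 in mutant and 35 in wildtype. The region between Krt74 and Krt72 had 35 in mutant and 74 in wildtype, that past Krt33a 14 in mutant and 52 in wildtype, and that upstream of Krt24 13 in mutant and 42 in wildtype. Regions in a cluster are neighbours and not independent of each other, and the set was chosen for its values, so no test was made.

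Among the genes with most gene-flanking regions, Slc1a3, a glutamate transporter gene, had 5 and no other SRF region, all downstream, with highest values of 23 in mutant and 42 in wildtype. Gm12349 had 4 and no other, with 100 in mutant and 210 in wildtype at the highest. By chromosome, gene-flanking regions made up from 12.9% of regions on X to 20.1% on chromosome 11, apart from Y, which had 0 among 13 regions. The median log2 ratio was -1.28 over the 82 on X and lay between -1.17 and -1.06 on the autosomes. No interval was computed for these medians, nor the ratio of all regions on X. Whether the lower median on X is particular to gene-flanking regions was therefore not tested.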
